A study of Mus musculus with 12 samples.

Results

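Solute carriers are the membrane proteins that move nutrients, ions, vitamins, metals and drugs into and out of cells and organelles, and their genes carry symbols that begin with Slc, a family number and a member number. Here they were taken as the probe sets whose single platform gene symbol begins with Slc and a digit, without the Slco genes and without Slc1a2, Slc7a11, Slc11a1, Slc11a2, Slc27a5 and Slc40a1. The rule used no measured value. It found 410 of 22626 probe sets, which stand for 256 of the 12393 genes measured and for 47 Slc families. A few of these symbols belong to proteins that carry nothing themselves, such as Slc9a3r1 and Slc9a3r2, scaffold proteins first found as partners of a sodium-hydrogen exchanger.

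RNA of isolated mesenchymal cells and isolated hepatocytes of mouse liver was hybridised to Affymetrix 3′ arrays. The mice were male C57BL/6N animals, 12 weeks old. There were 4 groups of 3 arrays: mesenchymal cells after phenobarbital, mesenchymal cells after vehicle, hepatocytes after phenobarbital and hepatocytes after vehicle. Phenobarbital, a barbiturate that turns on drug metabolism in liver, was given in the drinking water at 50 mg/kg for 14 days, and the vehicle was water. No genotype or allele other than the strain is given for any group. The labels do not say whether the 3 samples of a group came from separate mice, so a p-value here covers the spread among samples, which may be technical. Levels are log2 RMA values, where a difference of 1 is a 2-fold change, and the number of arrays limits their precision.

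In liver the hepatocyte takes up bile acids, drugs and organic anions from blood, releases glucose, and feeds its urea cycle and fat oxidation through carriers of the mitochondrial inner membrane. The cells around it, mainly Kupffer cells (resident macrophages), sinusoidal endothelium and stellate cells, have their own amino acid, nucleoside and metal carriers. Amino acid exchangers of family 7 work as a pair of proteins, with a light chain that transports and a heavy chain of family 3 that brings it to the membrane.

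The labelled populations were checked against defining markers in vehicle mice. All 9 measured Kupffer cell markers and all 9 markers of sinusoidal endothelium were higher in mesenchymal cells, and over the arrays of both treatments their mean levels ran from 13.4 to 13.9 and from 12.3 to 12.8 in mesenchymal cells, against 5.8 to 6.4 and 5.9 to 6.4 in hepatocytes. For stellate cells and fibroblasts 5 of 6 tested markers were higher, so the fraction labelled mesenchymal held transcripts of several cell types, with those of macrophages and endothelium high. Both measured neutrophil markers and 3 of 4 T and NK cell markers were higher in mesenchymal cells too. The mean of the neutrophil markers varied between mesenchymal arrays, reading 7.16, 11.39 and 7.90 after phenobarbital and 9.75, 8.32 and 7.30 after vehicle, against 5.47 to 6.05 in hepatocytes. The mean of the T and NK cell markers ran from 8.75 to 9.58 in mesenchymal cells, against 6.31 to 6.57 in hepatocytes. The 1 measured erythroid marker was lower in mesenchymal cells, at 6.79 to 7.64, against 10.67 to 11.15 in hepatocytes. The part of these cells in the population differences was not tested. All 11 measured hepatocyte markers were lower in mesenchymal cells, by −5.11 to −1.15 with a median of −4.36, but they were not absent. The smallest difference, −1.15, was that of albumin. Its hepatocyte levels lay near the highest value on any array, 15.16, so the size of its difference is rough. Albumin, Alb, read 14.69, 13.51 and 13.91 on the mesenchymal arrays after phenobarbital and 13.40, 14.21 and 14.07 after vehicle, against 15.02, 15.01 and 15.01 in hepatocytes after phenobarbital and 15.00, 15.07 and 15.05 after vehicle. The mean of the hepatocyte markers was highest on the first mesenchymal array after phenobarbital (11.49) and lowest on the first mesenchymal array after vehicle (9.73). The clock gene Dbp read 6.52 in mesenchymal cells and 6.21 in hepatocytes of the vehicle samples numbered 1, against 11.6 to 12.2 on the other 10 arrays. Cyp2b10, the standard phenobarbital response gene, read 13.06, 14.15 and 12.87 in hepatocytes after phenobarbital, against 7.80, 8.01 and 7.73 after vehicle. In mesenchymal cells it read 9.39, 7.82 and 7.57 after phenobarbital, against 7.18, 7.40 and 7.19 after vehicle.

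Many solute carrier genes were measured in both populations. A level was counted as detected on an array when it lay above that array's 40th percentile. Of the 256 genes, 122 (47.7%) were detected on all 6 arrays of each population, against 52.4% of all genes. A further 12 (4.69%) were detected on all 6 mesenchymal arrays and on no hepatocyte array, and 18 (7.03%) on all 6 hepatocyte arrays and on no mesenchymal array. For all genes these shares were 4.85% and 4.24%. Another 71 genes (27.7%, against 24.2% of all genes) were detected on none of the 12 arrays, and they included Slc51a, a subunit of the basolateral bile acid exporter, Slc7a1, a cationic amino acid transporter, and Slc5a1, the intestinal sodium-glucose transporter. The other 33 (12.9%) were in between. A gene entered a test when it was detected on at least 3 arrays of that fit, which let in 177 of the 256 genes for the comparisons of the populations. The remaining 79 have levels only. A gene high in a single group could enter in this way, for solute carriers and for all genes alike.

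Solute carrier genes differed between mesenchymal cells and hepatocytes mostly by being lower in mesenchymal cells. In vehicle mice 53 of the 177 tested genes were higher (29.9%) and 97 lower (54.8%) in mesenchymal cells at an adjusted p under 0.05 in limma, a linear model across all genes. Over all 9031 genes tested 42% were higher and 40.7% lower. Together 150 passed (84.7%), a share close to the background of 82.7%. At a difference of at least 2-fold, 31 genes were higher (17.5%) and 59 lower (33.3%), against 23.4% and 18.8% of all genes. The median log2 difference, mesenchymal minus hepatocyte, was −0.37 over the solute carriers and 0.02 over all genes, and single genes ran from −5.69 to 6.78. The groups did not overlap for 149 genes (84.2%, background 84.4%). In such bulk samples fewer cells of a type and less RNA per cell cannot be told apart.

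The split also depends on how arrays are scaled, since RMA aligns the arrays to a common distribution. Centring arrays on their median or on their 75th percentile moved the median of all genes by −0.22 or −0.13 and gave 42 higher and 109 lower or 46 higher and 105 lower solute carriers. The lower genes were 64.7% of those that passed as deposited, and 72.2% and 69.5% under these centrings.

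The widest differences on the higher side came from carriers of nucleobases, nucleotides and peptides. Slc43a3, a purine nucleobase transporter in a family otherwise of amino acid transporters, read 11.27, 12.01 and 12.56 in vehicle mesenchymal cells, against 5.19, 4.68 and 5.62 in vehicle hepatocytes (difference 6.78, SE 0.32, 110-fold). Slc25a36, a mitochondrial pyrimidine nucleotide carrier, read 10.77, 11.00 and 10.95 in vehicle mesenchymal cells, against 4.73, 4.61 and 4.61 in vehicle hepatocytes (6.26, SE 0.08, 76.5-fold). Slc15a3, a peptide and histidine transporter of lysosomes, read 11.81, 11.12 and 11.07 in vehicle mesenchymal cells, against 5.40, 5.26 and 5.16 in vehicle hepatocytes (6.06, SE 0.19, 66.8-fold). Every mesenchymal array lay far above every hepatocyte array for these 3 genes, with limma adjusted p of 2.89e-09 for Slc43a3, 2.18e-12 for Slc25a36 and 1.59e-10 for Slc15a3. On the lower side Slc47a1, the MATE1 exporter of organic cations, read 4.85, 5.82 and 5.82 in vehicle mesenchymal cells, against 10.87, 11.31 and 11.37 in vehicle hepatocytes (−5.69, SE 0.42). No mesenchymal array of Slc47a1 came near the hepatocyte arrays, and the limma adjusted p was 1.24e-07.

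Many of these differences end in levels near the bottom of the array. Of the 97 lower genes 30 were detected on no vehicle mesenchymal array, and of the 53 higher genes 12 were detected on no vehicle hepatocyte array, so the size of these differences is rough. The plot of the 20 widest genes shows the levels of both treatments on the same side of the other population. Within mesenchymal cells the treatments lay less close for some lower genes. There Slc25a47 was higher by 1.11 after phenobarbital, and the treatment groups of Slc22a7 did not overlap.

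**Figure D1:**
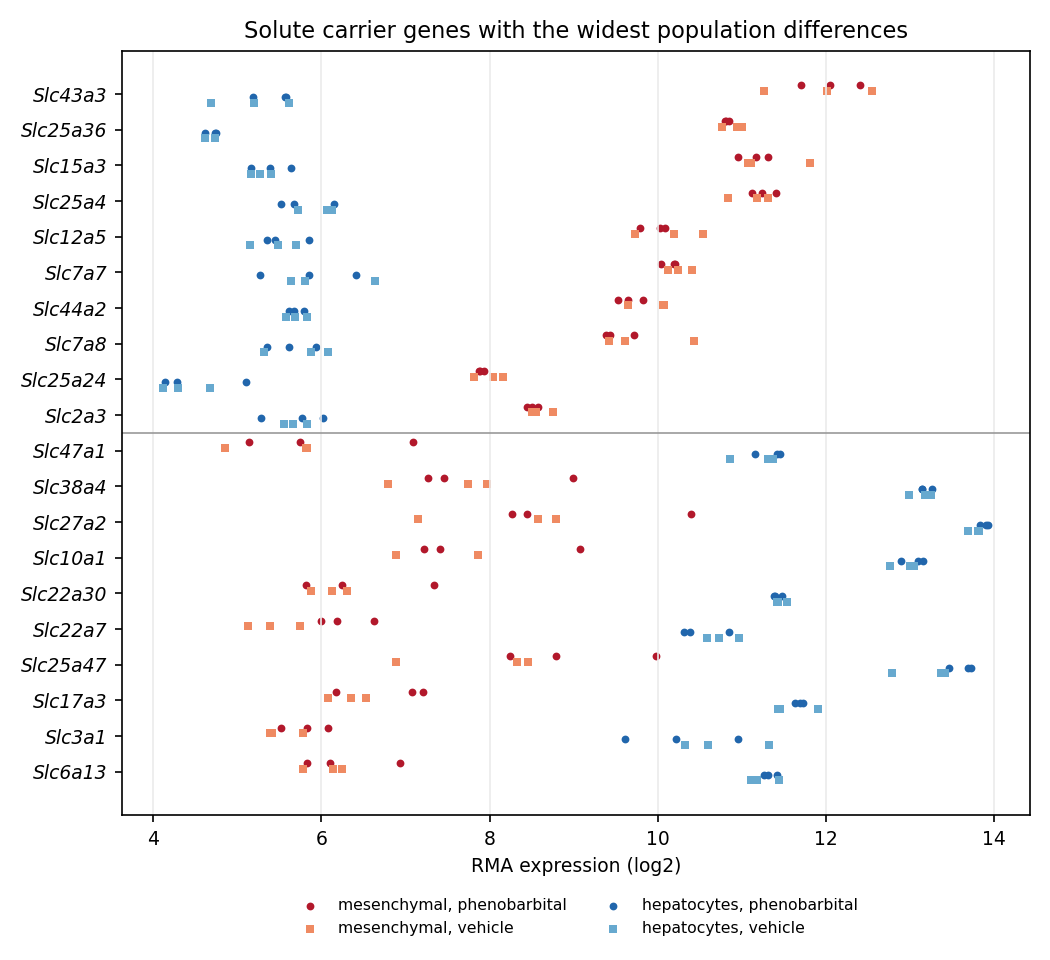
RMA expression (log2) of the 10 solute carrier genes with the widest higher (upper block) and the 10 with the widest lower difference in vehicle mesenchymal cells, with 1 point per array and colours for the 4 groups. Mesenchymal arrays lie right of the hepatocyte arrays in the upper block and left of them in the lower block, and within mesenchymal cells the lower block is spread more widely than the upper one.

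To show what lies in front of such genes, 4 start regions are printed from the RefSeq promoter table (GRCm38.p6), 250 bases before the annotated start and read 5′ to 3′ on the gene's strand. They are, in order of difference, the first 2 lower and the first 2 higher genes in mesenchymal cells with a single window in that table, which covered 203 of the 256 genes. Capitals mark CG dinucleotides. Slc27a2 lies at chr2:126552774-126553023 on the plus strand, Slc22a30 at chr19:8405106-8405355, Slc25a36 at chr9:97111042-97111291 and Slc25a4 at chr8:46211063-46211312, all 3 on the minus strand.
Slc27a2: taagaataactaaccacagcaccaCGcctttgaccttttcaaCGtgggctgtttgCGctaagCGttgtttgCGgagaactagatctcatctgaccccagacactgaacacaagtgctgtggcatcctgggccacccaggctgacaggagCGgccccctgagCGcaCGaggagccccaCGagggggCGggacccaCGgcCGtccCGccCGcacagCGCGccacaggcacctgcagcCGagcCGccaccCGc
Slc22a30: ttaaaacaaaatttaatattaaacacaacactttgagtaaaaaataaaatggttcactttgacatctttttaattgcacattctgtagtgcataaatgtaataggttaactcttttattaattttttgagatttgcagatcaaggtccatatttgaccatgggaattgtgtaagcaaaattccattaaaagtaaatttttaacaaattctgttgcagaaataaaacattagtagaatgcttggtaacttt
Slc25a36: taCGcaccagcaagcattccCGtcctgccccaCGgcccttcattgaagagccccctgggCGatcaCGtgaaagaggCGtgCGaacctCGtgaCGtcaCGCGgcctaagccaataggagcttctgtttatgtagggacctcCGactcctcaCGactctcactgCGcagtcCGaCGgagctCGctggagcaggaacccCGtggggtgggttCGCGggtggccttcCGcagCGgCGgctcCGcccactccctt
Slc25a4: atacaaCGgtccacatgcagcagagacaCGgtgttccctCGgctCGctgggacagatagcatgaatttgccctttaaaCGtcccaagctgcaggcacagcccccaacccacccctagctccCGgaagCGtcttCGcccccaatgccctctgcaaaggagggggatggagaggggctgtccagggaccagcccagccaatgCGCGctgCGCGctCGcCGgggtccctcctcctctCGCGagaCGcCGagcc

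The window of Slc22a30 held no CG at all, while those of Slc27a2, Slc25a36 and Slc25a4 held 19, 24 and 18. So genes lower in mesenchymal cells include both a CG-free and a CG-rich start. Over the genes with a window the median CG count was 12.5 for those higher in mesenchymal cells (58 windows of 37 genes) and 11 for those lower (110 windows of 79 genes). It was 6 over all 32851 windows. These belong to 27025 genes, among them genes not tested here, so they are not a matched background. At a difference of at least 2-fold the medians were 10 and 7.5. The letters TATAAA, the TATA box, were searched on both strands and lay in 3.45% of windows of the higher genes, 8.18% of windows of the lower genes and 12.4% of all windows. GTTAAT, part of the HNF1 site, lay in 1.72%, 2.73% and 6.43%, and CAAAGTCC, a core of HNF4 sites, in 1.72%, 3.64% and 1.2%. GAGGAAGT, a core of PU.1 sites, lay in 0%, 2.73% and 2.44%. The shares of the solute carriers rest on few windows, for TATAAA on 2 windows of the higher and 9 windows of the lower genes. None of the 4 motifs was found in the printed windows, which says only that these letters are not there.

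By substrate, the group of bile acid and fatty acid carriers held more lower than higher genes in mesenchymal cells. Of the 9 measured genes of this group 7 were tested, of which 2 were higher and 5 lower, with a median difference of −0.74. For this group and those below, the shares to set beside such counts are 42% higher and 40.7% lower over all genes tested. Over all tested solute carriers they are 29.9% and 54.8%. The group is small and does not hold uptake carriers only. Slc10a1, the sodium-dependent bile acid uptake transporter NTCP, read 6.88, 7.86 and 7.86 in vehicle mesenchymal cells, against 12.77, 13.00 and 13.05 in vehicle hepatocytes (−5.40, SE 0.42, limma adjusted p 1.91e-07). Slc27a2, which activates and takes up long-chain fatty acids, read 7.15, 8.79 and 8.58 in vehicle mesenchymal cells, against 13.70, 13.81 and 13.83 in vehicle hepatocytes (−5.60, SE 0.52, limma adjusted p 9.83e-07). Both were far below every hepatocyte array, and in both the first mesenchymal array was the lowest. Slc10a2, the bile acid uptake transporter of ileum and bile duct, was lower as well (−3.08, SE 0.25), with vehicle hepatocyte arrays at 6.66 to 7.28, near the 40th percentile of those arrays. Slc10a3 of the same family was higher (1.53, SE 0.08). Slc10a6, a carrier of sulphated steroids, was also higher (1.10, SE 0.45, limma adjusted p 0.0402), but its vehicle mesenchymal arrays read 6.63, 7.07 and 8.78, so that 1 array carries much of the difference. Without the array at 8.78 it was 0.46 and did not pass (limma adjusted p 0.147), and without the vehicle hepatocyte array numbered 2 or 3, at 0.96 and 1.09, it did not pass either. Slc51b was not analysed here.

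Carriers of organic cations and anions, which handle drugs, urate and metabolic end products, had the lowest median of the groups with at least 10 tested members. Of 23 measured genes 13 were tested, 2 were higher and 10 lower, and the median was −2.64. The organic anion transporter Slc22a7 (OAT2) read 5.39, 5.75 and 5.12 in vehicle mesenchymal cells, against 10.97, 10.73 and 10.59 in vehicle hepatocytes (−5.34, SE 0.21). The related Slc22a30 differed by −5.36 (SE 0.29), and Slc17a3, Slc17a2 and Slc17a1, anion and urate carriers of 1 family, by −5.28 (SE 0.24), −5.07 (SE 0.20) and −2.93 (SE 0.20). All 4 tested members of family 17 were lower. The 2 higher members were Slc22a17, a receptor for lipocalin 2 rather than a drug carrier (1.12, SE 0.12), and Slc22a5, the carnitine transporter OCTN2 (0.56, SE 0.14).

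Amino acid carriers had members on both sides. Of 52 measured genes grouped under amino acids, amines and peptides 27 were tested, of which 9 were higher and 14 lower, with a median of −0.54. The 9 include Slc43a3, the nucleobase transporter given above, which its family placed in this group. The sodium-coupled neutral amino acid transporters Slc38a4 (−5.63, SE 0.40) and Slc38a3 (−5.05, SE 0.42) were lower, with vehicle mesenchymal levels for Slc38a3 of 7.24, 8.88 and 8.51 against 12.99, 13.42 and 13.39 in vehicle hepatocytes. Slc38a3 imports and releases glutamine, and Slc38a2 of the same family was lower by less (−1.18, SE 0.20), while Slc38a1, which also carries glutamine, was higher (0.98, SE 0.12). The cationic amino acid carrier Slc7a2, an entry route for arginine, read 5.13, 5.14 and 5.13 in vehicle mesenchymal cells, against 9.82, 10.42 and 10.40 in vehicle hepatocytes (−5.08, SE 0.20). The GABA, taurine and betaine carriers Slc6a13 (−5.19, SE 0.24) and Slc6a12 (−4.16, SE 0.17) were lower, while the taurine transporter Slc6a6 was higher by a small amount (0.32, SE 0.11, limma adjusted p 0.0185). Family 6 held 1 higher and 4 lower genes among its 7 tested members, and family 38 held 1 higher and 3 lower among 5.

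The paired exchangers showed the opposite directions for their heavy chains. Slc3a2, the heavy chain of the L-type exchangers, read 11.70, 11.57 and 11.64 in vehicle mesenchymal cells, against 9.03, 9.14 and 9.08 in vehicle hepatocytes (2.56, SE 0.12, limma adjusted p 3.42e-09). Among its light chains analysed here 3 were tested, and all 3 were higher: Slc7a7, which exports basic amino acids, by 4.23 (SE 0.29), Slc7a8 by 4.07 (SE 0.27) and Slc7a5 by 1.89 (SE 0.23). The light chains Slc7a6 and Slc7a10 were measured but did not pass the filter on low values, so they were not tested. Slc7a7 read 10.41, 10.24 and 10.13 in vehicle mesenchymal cells, against 6.64, 5.63 and 5.80 in vehicle hepatocytes. Slc3a1, the heavy chain of the cystine and dibasic amino acid exchanger, was lower in mesenchymal cells by a wide margin, reading 5.39, 5.78 and 5.41 in vehicle mesenchymal cells against 11.33, 10.59 and 10.33 in vehicle hepatocytes (−5.22, SE 0.32). Family 7 thus held 3 higher and 3 lower genes among its 6 tested members. Slc16a10 was not analysed here.

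Glucose carriers differed by isoform. Of 22 measured sugar carriers 15 were tested, 5 were higher and 6 lower, with a median of −0.27. Slc2a2, the low-affinity glucose transporter GLUT2 of hepatocytes, read 6.78, 8.18 and 8.04 in vehicle mesenchymal cells, against 12.39, 13.05 and 13.07 in vehicle hepatocytes (−5.17, SE 0.54). Slc37a4, which moves glucose 6-phosphate into the endoplasmic reticulum for glucose release, was lower, with a difference of −3.61 (SE 0.22). Slc2a3, the high-affinity transporter GLUT3, ran the other way, at 8.75, 8.55 and 8.51 in vehicle mesenchymal cells against 5.82, 5.55 and 5.66 in vehicle hepatocytes (2.93, SE 0.16). Slc50a1 (1.73, SE 0.09) and the sugar phosphate exchanger Slc37a2 (1.40, SE 0.17) were higher as well. Slc2a1, the widely expressed GLUT1, did not pass: it averaged 7.70 ± 0.40 in vehicle mesenchymal cells and 8.01 ± 0.14 in vehicle hepatocytes (SD, n = 3 each), a difference of −0.31 (SE 0.23) with a limma adjusted p of 0.219. Slc2a6 was not analysed here.

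The mitochondrial carriers of family 25 were the largest family, with 33 measured and 32 tested genes, and 8 of these were higher and 19 lower, with a median of −0.36. Those of the urea cycle were lower, with Slc25a13, the aspartate-glutamate carrier citrin, at a difference of −4.64 (SE 0.20) and Slc25a15, the ornithine carrier, at −4.49 (SE 0.19). Slc25a47, a carrier found mainly in liver, read 6.89, 8.46 and 8.33 in vehicle mesenchymal cells, against 12.79, 13.38 and 13.42 in vehicle hepatocytes (−5.30, SE 0.45). Slc25a20, which carries acylcarnitines for fat oxidation, was lower too (−2.12, SE 0.14).

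Within this family closely related members ran in opposite directions. Slc25a4 and Slc25a5 are isoforms of the ADP/ATP carrier. Slc25a4 read 10.83, 11.18 and 11.32 in vehicle mesenchymal cells, against 5.72, 6.12 and 6.07 in vehicle hepatocytes (5.14, SE 0.18). Slc25a5 read 13.19, 13.14 and 13.02 in vehicle mesenchymal cells, against 13.42, 13.51 and 13.47 in vehicle hepatocytes, a small but non-overlapping difference (−0.35, SE 0.07, limma adjusted p 0.000563). Likewise, of the calcium-regulated ATP-Mg/phosphate carriers, Slc25a24 was higher (3.64, SE 0.23), while Slc25a23 (−3.94, SE 0.18) and Slc25a25 (−2.57, SE 0.16) were lower. Slc25a36, given above, was the widest of the family.

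Metal carriers held members on both sides. Of 24 measured genes for metals and haem 23 were tested, 9 were higher and 12 lower, with a median of −0.23. In the zinc importer family 39, Slc39a14, which also takes up manganese and iron, read 7.09, 7.28 and 7.09 in vehicle mesenchymal cells, against 10.66, 10.92 and 10.90 in vehicle hepatocytes (−3.67, SE 0.23), and Slc39a4 differed by −3.98 (SE 0.21). Slc39a8, the nearest relative of Slc39a14 in the family, read 11.21, 11.39 and 11.33 in vehicle mesenchymal cells, against 9.49, 8.94 and 8.88 in vehicle hepatocytes (2.20, SE 0.14), and Slc39a6 was higher by 2.16 (SE 0.19). Slc39a14 and Slc39a8 thus differed without overlap, in opposite directions. The copper carriers were split too, with the plasma membrane importer Slc31a1 lower (−1.83, SE 0.10) and Slc31a2 higher (2.85, SE 0.13). The magnesium carrier Slc41a2 was lower (−3.48, SE 0.29) and its relative Slc41a1 higher (0.58, SE 0.12). Slc48a1, which brings haem out of lysosomes, was higher (1.30, SE 0.12). Slc30a10 was not analysed here.

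The smaller groups were as follows. Of 17 measured carriers of vitamins, choline and acetyl-CoA 13 were tested, 4 were higher and 9 lower, with a median of −0.96. The 2 ascorbate transporters ran in opposite directions, with Slc23a1 lower (−4.74, SE 0.17) and Slc23a2 higher (1.01, SE 0.22) in the probe set used. With the mean of its probe sets Slc23a2 differed by 0.29 (limma adjusted p 0.0994) in vehicle and by 0.17 (adjusted p 0.321) after phenobarbital, and did not pass. The thiamine transporter Slc19a2 was lower (−3.75, SE 0.11), as was the lysosomal Slc46a3 (−1.38, SE 0.18), and the choline transporter-like Slc44a2 was higher (4.23, SE 0.13). Both tested nucleoside transporters of 5 measured were higher, Slc29a1 by 1.76 (SE 0.18) and the lysosomal Slc29a3 by 2.27 (SE 0.18). Of 11 measured mono- and dicarboxylate carriers 7 were tested, none was higher and 5 were lower, with a median of −1.34. Among these were the lactate carriers Slc16a1 (−3.01, SE 0.32) and Slc16a7 (−1.48, SE 0.19), and the dicarboxylate carrier Slc13a3 (−1.34, SE 0.16).

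Among 40 measured inorganic ion carriers 20 were tested, 7 were higher and 9 lower, with a median of −0.23. The sulphate carriers Slc26a1 (−5.12, SE 0.25) and Slc26a2 (1.99, SE 0.11) differed in direction, as did the scaffold proteins Slc9a3r1 (2.31-fold lower) and Slc9a3r2 (6.99-fold higher). Slc20a2, a phosphate carrier, was lower (−2.57, SE 0.14). Slc12a5, known as the potassium-chloride exporter of neurons, was higher by 4.71 (SE 0.21) in the probe set used, while its other probe set lay at a mean level of 5.54 and differed by 0.06. The gene is therefore uncertain. Of 18 measured carriers of nucleotide sugars for the endoplasmic reticulum and Golgi 17 were tested, 5 were higher and 7 lower, with a median of −0.20, and Slc35d1 (−3.79, SE 0.17) and Slc35b3 (1.58, SE 0.15) were the widest on each side, followed by Slc35a3 (−1.33, SE 0.12) and Slc35a4 (1.07, SE 0.09).

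**Figure D2:**
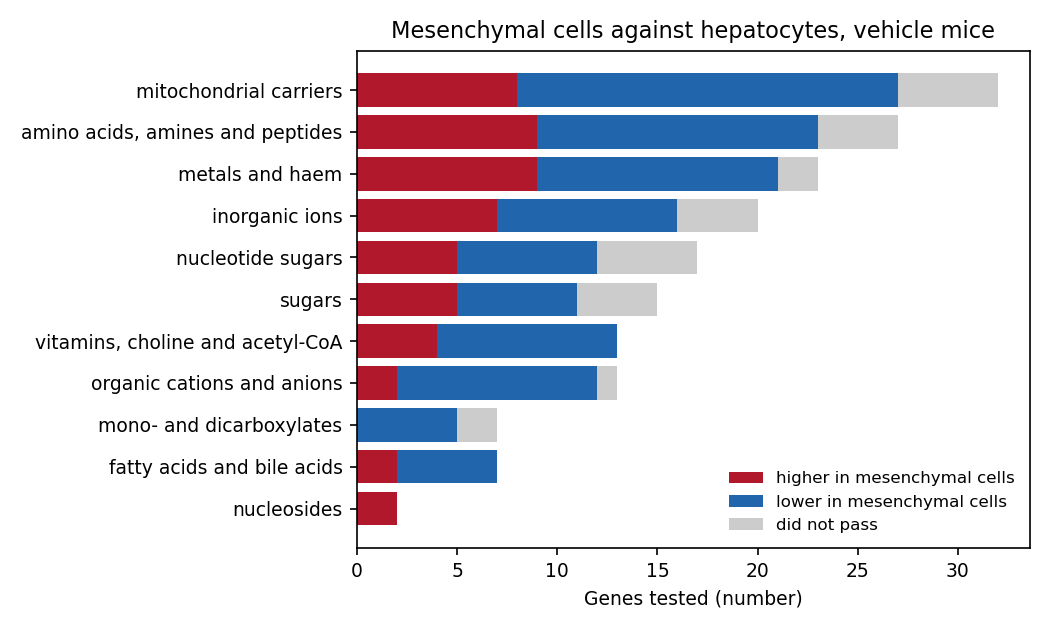
Number of tested solute carrier genes by substrate group that were higher, were lower or did not pass at a limma adjusted p under 0.05 in mesenchymal cells against hepatocytes of vehicle mice. Mitochondrial carriers hold 8 higher and 19 lower genes, carriers of organic cations and anions 2 and 10, and amino acid carriers 9 and 14. The 9 include Slc43a3, a nucleobase transporter placed in that group by its family.

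Families held members of both directions more often than not. Of 31 families with at least 2 tested genes, 20 had a gene that passed in each direction, 9 had only lower and 2 only higher genes among those that passed. The count of 20 became 18 when arrays were centred on their median or their 75th percentile. Since 84.7% of the tested solute carriers and 82.7% of all genes passed, a family with several tested genes can easily hold both directions. No such count was made for groups of other genes. Where a gene had further probe sets, they mostly had the same sign. Of 76 further tested probe sets of genes that passed, 73 had the sign of the probe set used and 66 of these passed. In vehicle mice only Slc39a3 had a passing probe set of the other sign (0.68, against −0.72 in the one used). After phenobarbital this held for Slc39a3 again and for Slc37a3 (−0.56, against 0.26 in the one used). The sizes differed more, as for Slc44a2, whose 3 probe sets gave 7.70, 4.23 and 1.45.

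After phenobarbital the populations differed in nearly the same way. The levels came from the other 6 arrays, but both comparisons were taken from 1 fit over all 12 arrays and share its spread and its filter. There 150 of the 177 genes passed (84.7%, background 83.1%), 52 of them higher (29.4%, background 42.2%) and 98 lower (55.4%, background 40.9%). Of the 177 genes, 48 were higher and 94 lower in both treatments, none passed in opposite directions, 8 passed only in vehicle, 8 only after phenobarbital and 19 in neither. The sign was the same for 170. Over all 9031 genes 7081 passed with the same sign in both treatments and none with opposite signs. Of the rest 389 passed only in vehicle, 422 only after phenobarbital and 1139 in neither, and the sign was the same for 8665. In this the solute carriers were close to all genes. The median difference after phenobarbital was −0.45 over the solute carriers and 0.03 over all genes. The ends were the same too: Slc43a3 differed by 6.61 (SE 0.32) and Slc25a36 by 6.12 (SE 0.08), and Slc47a1 by −5.35 (SE 0.42), Slc38a4 by −5.28 (SE 0.40) and Slc10a1 by −5.15 (SE 0.42). Centring on the median or the 75th percentile moved the median of all genes by −0.23 or −0.17 and gave 44 higher and 108 lower or 46 higher and 106 lower genes.

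The genes that passed in 1 treatment only had small differences or wide spread. After phenobarbital only, Slc38a10 was higher (0.66, vehicle 0.23) and the phosphate carrier Slc20a1 lower (−0.86, vehicle −0.60). In vehicle only, Slc10a6 (phenobarbital 0.65, vehicle 1.10), Slc22a5 (phenobarbital 0.15, vehicle 0.56) and Slc35a5 (phenobarbital 0.10, vehicle 0.53) were higher and the potassium-chloride exporter Slc12a4 lower (phenobarbital −0.28, vehicle −0.75). That a gene passed in 1 treatment and not in the other does not show a difference between treatments. The test of that difference itself is given further on, and no solute carrier passed it.

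**Figure D3:**
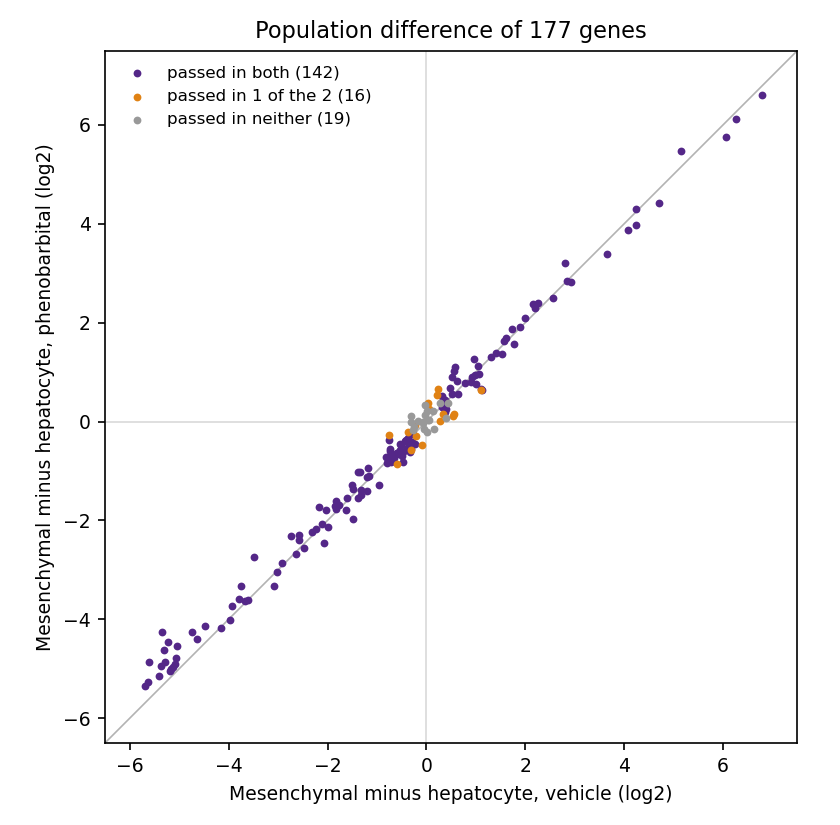
Log2 difference of mesenchymal cells minus hepatocytes for the 177 tested solute carrier genes, after phenobarbital (vertical axis) and after vehicle (horizontal axis), with the diagonal as a grey line. The 142 genes that passed in both treatments lie in the lower left and upper right quadrants, close to the diagonal.

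In hepatocytes no solute carrier gene passed the test for phenobarbital. None of the 164 tested genes had a limma adjusted p under 0.05, against 4 of 8117 genes in all (0.0493%), and the lowest adjusted p of a solute carrier was 0.433. At an unadjusted p under 0.05 there were 18 genes (11%), against 8.38% of all genes. Of these 8 were higher (4.88%, background 3.84%) and 10 lower (6.1%, background 4.53%). The groups did not overlap for 24 genes (14.6%), against 15.1% of all genes. Differences were small: 162 of the 164 lay within 0.5 on the log2 scale (98.8%, against 97.1% of all genes), around a median of −0.01, and the median SE was 0.12. Bile acid, sugar and organic anion carriers had group medians of 0.11, 0.09 and 0.08, and metal carriers of −0.08.

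The genes with the smallest p were carriers of choline, vitamins, metals and mitochondrial substrates, and their values are given as a description. Slc44a3, a choline transporter-like protein, read 6.90, 6.95 and 6.86 in hepatocytes after phenobarbital, against 7.56, 7.14 and 7.46 after vehicle (−0.48, SE 0.13, unadjusted limma p 0.00598). Slc19a2, the thiamine transporter, read 10.84, 10.96 and 10.68 after phenobarbital, against 11.15, 11.10 and 11.16 after vehicle (−0.31, SE 0.09). Slc25a29, a mitochondrial carrier of basic amino acids, read 8.37, 8.66 and 8.62 after phenobarbital, against 8.20, 8.17 and 8.24 after vehicle (0.35, SE 0.10). In these 3 genes the phenobarbital and vehicle arrays did not overlap.

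Magnesium and zinc carriers followed. Slc41a2 had the widest hepatocyte difference of all tested solute carriers, at 9.06, 9.04 and 8.94 after phenobarbital against 10.53, 9.59 and 9.23 after vehicle (−0.77, SE 0.29). Its relative Slc41a1 read 6.81, 6.80 and 6.92 after phenobarbital, against 7.46, 7.25 and 7.01 after vehicle (−0.40, SE 0.13). The zinc importer Slc39a1 read 9.66, 9.77 and 9.76 after phenobarbital, against 10.18, 10.07 and 9.85 after vehicle (−0.30, SE 0.10). In all 3 the first vehicle array was the highest. Slc25a47 read 13.73, 13.69 and 13.47 after phenobarbital, against 12.79, 13.38 and 13.42 after vehicle (0.44, SE 0.17), and there the first vehicle array was the lowest.

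That array is the one whose clock genes stood apart. Among the 18 genes it was the vehicle array farthest from the phenobarbital mean in 15. Without it all 18 kept their sign, and 6 still had an unadjusted p under 0.05. Counting genes outside the 18 as well, 15 solute carriers had such a p without this array. The difference of Slc41a2 was then −0.39 (SE 0.12), that of Slc25a47 0.23 (SE 0.09), that of Slc44a3 −0.40 (SE 0.14), that of Slc19a2 −0.30 (SE 0.10) and that of Slc25a29 0.34 (SE 0.11). The part of the clock genes in these values was not tested. The remaining genes of the 10 with the smallest p were Slc2a1 (−0.47, SE 0.17), whose groups overlap, Slc22a17 (0.25, SE 0.09) and Slc25a46 (0.20, SE 0.08).

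**Figure D4:**
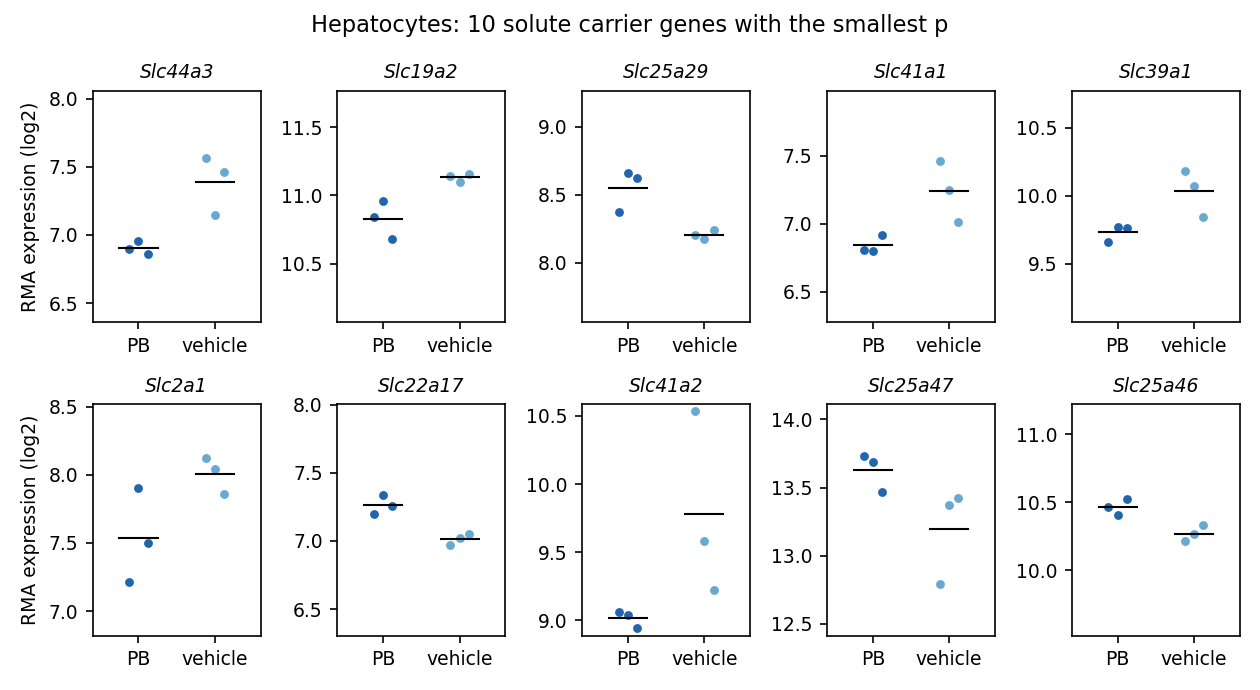
RMA expression (log2) in hepatocytes of the 10 solute carrier genes with the smallest unadjusted p, after phenobarbital (PB, left) and vehicle (right), with 1 point per array in the order 1 to 3 and a bar at the mean of 3. Every panel spans the same height, and in Slc41a2 the first vehicle array stands well above the other arrays.

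For 4 carriers typical of hepatocytes the values after phenobarbital were close to those after vehicle. Slc10a1 read 13.10, 13.16 and 12.89 after phenobarbital, against 12.77, 13.00 and 13.05 after vehicle (0.11, SE 0.10). Slc27a2 read 13.91, 13.94 and 13.84 after phenobarbital, against 13.70, 13.81 and 13.83 after vehicle. Slc22a7 read 10.38, 10.32 and 10.85 after phenobarbital, against 10.97, 10.73 and 10.59 after vehicle (−0.24, SE 0.16). Slc46a3 read 9.64, 9.74 and 10.31 after phenobarbital, against 10.19, 10.12 and 10.01 after vehicle (−0.21, SE 0.17). The groups overlapped in 3 of these 4 genes, and in Slc27a2 all phenobarbital arrays lay slightly above the vehicle arrays (0.12, SE 0.06). Other carriers differed by more without passing. Slc13a3, a sodium-coupled dicarboxylate carrier, read 5.99, 6.34 and 6.64 after phenobarbital, against 6.91, 6.68 and 6.71 after vehicle, with no overlap (−0.45, SE 0.18, unadjusted limma p 0.0377), and without the first vehicle array its difference was −0.38 (SE 0.21). Slc3a1 differed by −0.49 (SE 0.36), the bile acid carrier Slc10a2 by 0.40 (SE 0.21) and the lactate carrier Slc16a7 by 0.39 (SE 0.18), with overlapping groups. A miss of the threshold does not show that a gene did not respond.

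In mesenchymal cells no solute carrier gene passed for phenobarbital either. None of 146 tested genes passed in limma, nor did any of the 8003 genes in all (0%), and the lowest adjusted p was 0.998. At an unadjusted p under 0.05 there were 3 genes (2.05%, background 2.9%), all higher. The groups did not overlap for 15 genes (10.3%), against 7.7% of all genes, 7 of them higher (4.79%, background 4.09%) and 8 lower (5.48%, background 3.61%). The 3 genes were the phosphate carrier Slc20a1, at 9.31, 9.14 and 9.31 after phenobarbital against 8.75, 9.06 and 8.93 after vehicle (0.34, SE 0.10), Slc12a4, at 7.32, 7.60 and 7.59 after phenobarbital against 7.02, 7.24 and 7.31 after vehicle (0.31, SE 0.12), and the copper importer Slc31a1, at 8.72, 8.92 and 8.64 after phenobarbital against 8.36, 8.57 and 8.58 after vehicle (0.26, SE 0.10). In each, all phenobarbital arrays lay above all vehicle arrays. Next by unadjusted p, apart from Slc25a47, came Slc35a5 (−0.20, SE 0.09), the mitochondrial glutamate carrier Slc25a22 (0.24, SE 0.11), Slc35c2 (−0.23, SE 0.10), Slc38a2 (0.20, SE 0.10), the folate carrier Slc19a1 (−0.20, SE 0.11) and Slc16a11 (−0.18, SE 0.10). The zinc exporter Slc30a1 was the only gene tested in both populations whose groups did not overlap in the same direction in both, with 0.25 (SE 0.14) in mesenchymal cells and 0.21 (SE 0.10) in hepatocytes.

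The widest mesenchymal differences lay in hepatocyte-rich carriers and moved with single arrays. Slc25a47 read 9.97, 8.79 and 8.24 in mesenchymal cells after phenobarbital, against 6.89, 8.46 and 8.33 after vehicle (1.11, SE 0.56, unadjusted limma p 0.0933). Without both mesenchymal samples numbered 1, a choice made after seeing the data, its difference was 0.12. Slc2a2 showed the same pattern, at 9.52, 7.07 and 7.75 after phenobarbital against 6.78, 8.18 and 8.04 after vehicle. Over the 10 solute carriers with the widest lower difference, the mean level was 7.90, 6.96 and 6.59 on the mesenchymal arrays after phenobarbital and 6.11, 6.95 and 6.75 after vehicle. The mean of the 11 hepatocyte markers was 11.49, 10.40 and 10.27 after phenobarbital and 9.73, 10.71 and 10.57 after vehicle, so that both were highest on the first phenobarbital array and lowest on the first vehicle array. The 10 widest higher genes did not follow, with means of 10.04, 10.11 and 10.15 after phenobarbital and 10.21, 10.21 and 10.20 after vehicle. The part of hepatocyte RNA in these values was not tested.

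Gene by gene the pattern was partial. Of 37 genes at least 2-fold lower in vehicle mesenchymal cells and tested there, the first phenobarbital array was the highest of the 6 in 22 and the first vehicle array the lowest in 16, and 29 had a positive phenobarbital difference. The vehicle arrays also served to choose these 37, so this is a description. Their median difference was 0.13, and −0.03 without both samples numbered 1. In the other 109 genes the first phenobarbital array was the highest in 7 and the first vehicle array the lowest in 29, 43 differences were positive, and the median was −0.02 with and −0.03 without these samples.

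**Figure D5:**
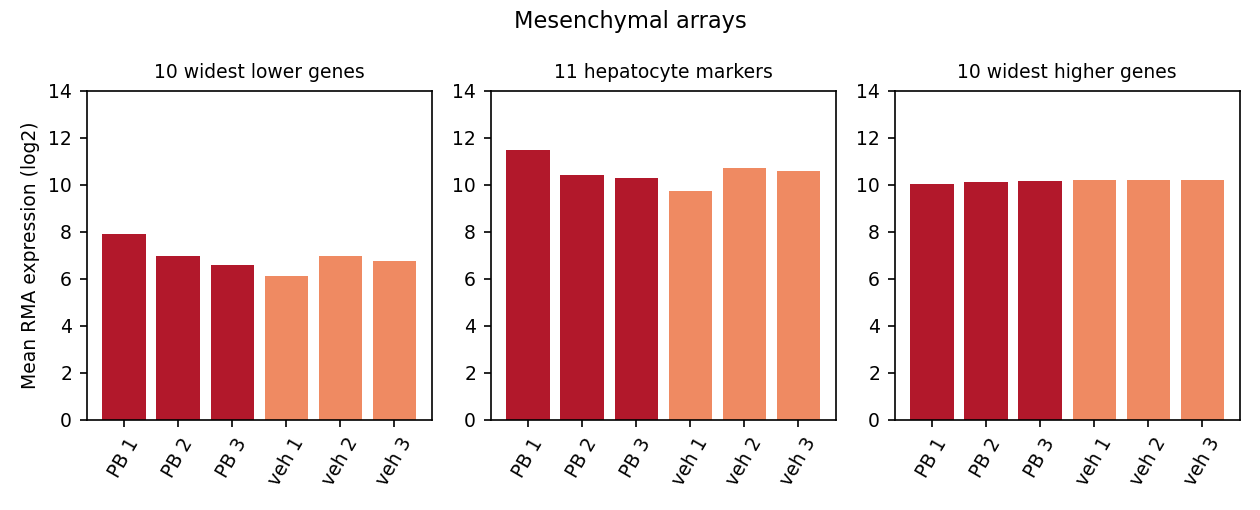
Mean RMA expression (log2) on each of the 6 mesenchymal arrays, phenobarbital (PB) left of vehicle (veh), for the 10 solute carriers with the widest lower difference, the 11 hepatocyte markers and the 10 solute carriers with the widest higher difference. The first 2 panels are highest on PB 1 and lowest on veh 1, and the third panel is flat at 10.04 to 10.21.

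The response to phenobarbital did not differ detectably between the populations for any solute carrier. None of 177 genes passed the test of the difference of effects in limma, hepatocyte effect minus mesenchymal effect, nor did any of 9031 genes in all (0%), and the lowest adjusted p was 0.870. At an unadjusted p under 0.05 there were 12 genes (6.78%, background 5.45%). The smallest p was that of Slc22a7 (−1.09, SE 0.29, unadjusted p 0.00319). Its mesenchymal arrays read 6.18, 6.63 and 6.00 after phenobarbital, against 5.39, 5.75 and 5.12 after vehicle, all below the 40th percentile of their arrays, while its hepatocyte groups overlapped. The value rests on levels where differences are rough. Next came Slc41a1 (−0.53, SE 0.17), Slc39a1 (−0.46, SE 0.15), Slc22a17 (0.47, SE 0.16) and Slc35a5 (0.43, SE 0.16).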

How the data were processed

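Per the labels' protocols, each sample's total RNA was amplified with an Affymetrix 3′ IVT kit for 1 array. The authors deposited log2 values for 22626 probe sets on 12 arrays (range 2.79 to 15.2). Per the submitters' processing notes they came from RMA. Its version and the scan dates were not given in the sources used here, and no batch could be tested. RMA aligns array distributions, so differences are relative to the bulk of probe sets. Arrays give no read depth, and their number limits precision.

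Of the probe sets, 20380 had 1 symbol in the platform annotation, 691 several and 1555 none. 20351 were matched to RefSeq genes and no symbol changed. Each gene was represented by its brightest probe set on average over all arrays, and 97 of the 256 solute carrier genes had more than 1. Close paralogs could share signal. 3 probe sets with several symbols that included a solute carrier were left out.

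The labels gave groups and replicate numbers. Tests were two-sided limma fits (limma 3.58.1, R 4.3.3, lmFit and eBayes with an intensity trend) over all genes above the 40th percentile on at least 3 arrays of the fit. The threshold was a Benjamini-Hochberg adjusted p below 0.05 over all genes tested. Phenobarbital was compared within each population on its 6 arrays, and the population differences and the difference of effects used all 12. Substrate groups followed the Slc family number, except for genes that were assigned singly, such as Slc5a5, Slc5a6 and Slc17a6. Named genes were the 10 widest of each sign between populations, the 2 widest of each sign in each substrate group, the 10 with the smallest p for phenobarbital where none passed, and a list always named where measured. Other genes were named after their values were seen. The members, lists and rules were chosen with earlier results of these data known. The fits were tested on simulated data. Alternatives changed the filter, scaling, probe set rule, variance model, samples and replicate block.

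No pair of arrays was identical. Deviations from group means were correlated across genes between mesenchymal cells and hepatocytes of vehicle mice with the same number. There r was 0.226, 0.213 and 0.178, each highest with its own number. These samples may therefore be paired, but this was inferred from the values alone, and the main fits used no pairing. Between the other groups r ran from −0.304 to 0.144, which cannot show whether their samples were paired.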

Additional observations from a re-analysis of the deposited data

How the results depend on the processing

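The counts of solute carrier genes that passed kept within 1.5 times of their value under every alternative run. For phenobarbital the count was 0 in all 16 alternatives in hepatocytes, 17 in mesenchymal cells and 23 for the difference of effects. Limma's lowest adjusted p over these was 0.292, 0.840 and 0.541, taken only over the 10 genes named in each comparison. Genes with an unadjusted p under 0.05 numbered 8 to 23, 2 to 12 and 7 to 24. The 12 arose without both mesenchymal samples numbered 1, an alternative chosen after seeing the data. Between the populations the count ran from 120 to 211 in vehicle and from 121 to 217 after phenobarbital, with the ends set by the stricter filter and by no filter, which change the number of genes tested. Leaving out 1 array gave 144 to 149 in vehicle and 140 to 150 after phenobarbital, and 151 in vehicle without both samples numbered 1, also chosen after seeing the data.

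With the replicate number as a block, the count was 152 in vehicle, 151 after phenobarbital and 0 in the 3 phenobarbital comparisons. A block by replicate number over the 6 vehicle arrays alone, added after seeing the data, gave 139, with 48 higher and 91 lower. Among the named genes Slc10a6 lost the threshold with this second block, at an unchanged 1.10, and neither block changed another call.

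Of 2474 alternative values for 72 named genes, 2457 kept their direction and side of the threshold, 9 lost the threshold, 2 gained it and 6 reversed. The gains were between the populations, for Slc2a1 in vehicle (limma adjusted p 0.0494) and for Slc10a6 after phenobarbital (limma adjusted p 0.0382). The reversals were in genes that did not pass after phenobarbital. Slc2a1 differed there by 0.10, and by −0.128 with median centring, −0.0638 with centring on the 75th percentile, and −0.0816 to 0.284 when 1 array was left out. Slc22a5 differed by 0.15, and by −0.0835 and −0.0190 under the same centrings. Slc10a6 lost the threshold in vehicle under 7 alternatives, and Slc23a2 in both treatments with the mean of its probe sets (0.29 in vehicle and 0.17 after phenobarbital). The causes were not tested.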

Other observations

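Some solute carriers lay close together in mesenchymal cells and hepatocytes of vehicle mice. Among the 27 tested genes that did not pass in limma were Slc25a3, which brings phosphate into mitochondria (−0.07, SE 0.07), the zinc carrier Slc39a7 of the early secretory pathway (−0.04, SE 0.08), Slc35e1 (0.03, SE 0.07) and Slc35c2 (0.02, SE 0.09). These small standard errors bound the differences more closely than for Slc25a51 (0.16, SE 0.24) or Slc25a30 (−0.02, SE 0.22), which also did not pass.

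Slc5a6, the multivitamin transporter for biotin and pantothenate, read 6.17, 6.39 and 6.25 in vehicle mesenchymal cells, against 6.23, 7.55 and 7.36 in vehicle hepatocytes. The first vehicle hepatocyte array lay at the mesenchymal level, while the phenobarbital hepatocyte arrays read 7.28, 7.17 and 7.33. Slc2a5, the fructose transporter, read 5.84, 6.07 and 6.12 in vehicle mesenchymal cells, against 7.57, 8.67 and 8.03 in vehicle hepatocytes. These genes were chosen after their values were seen.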
